A study of Mus musculus with 8 samples.

Results

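The genes described here were 58 cytochrome P450 genes of the mouse, scored for methylation of lysine 9 of histone H3 in mouse embryonic fibroblasts (MEFs). They were chosen by name and place, as protein-coding genes of the GENCODE M21 annotation (GRCm38 build) whose symbol is Cyp followed by a digit and which lie on chromosomes 5, 8, 9, 10, 11, 14, 15, 17 or 19. The annotation held 100 such genes on all chromosomes, and the 9 chromosomes held 9632 protein-coding genes. The study used chromatin immunoprecipitation followed by sequencing (ChIP-seq) to map mono-, di- and trimethylation of this lysine (H3K9me1, H3K9me2 and H3K9me3). Its 8 samples were an input and 1 immunoprecipitation per mark, each with 2 replicates, all from MEFs labelled wild-type. By the study's methods these cells were E1c, a single clone with a conditional allele of the H3K9 methyltransferase gene Eset1 and high activity of a tamoxifen-inducible Cre, and Eset1 is deleted in them only upon tamoxifen. The antibodies were ab8896 for H3K9me1, ab1220 for H3K9me2 and ab8898 for H3K9me3.

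The values analysed were 1 list of enriched regions per mark, with 42704 H3K9me1, 29119 H3K9me2 and 27108 H3K9me3 regions. No list gave a value per replicate, so no replicate error could be computed, and how deeply a region was sequenced cannot be read from them. They hold no expression values either, so neither the cell type nor the activity of a gene could be checked in them. The 9 chromosomes were those with at least 5% of their sequence in every list, and their covered shares ran from 11.2% to 56.5% for H3K9me1, from 6.24% to 59.0% for H3K9me2 and from 8.88% to 58.8% for H3K9me3. Counts were therefore set beside those of all protein-coding genes of the same chromosomes. Of the 42 Cyp genes on the other chromosomes only Cyp27a1 had a marked start site, with H3K9me1 (2.38%), a contrast that the choice of chromosomes largely fixed.

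Cytochromes P450 are heme enzymes that insert an oxygen atom into their substrates, with electrons handed on by P450 reductase in the endoplasmic reticulum and by ferredoxin in mitochondria. Some families make steroid hormones, sterols, bile acids and vitamin D, or break down retinoic acid. Others oxidize drugs, dietary compounds and fatty acids. The latter lie in tandem clusters in the mouse and are known mainly from liver, kidney and intestine rather than from fibroblasts. H3K9me2 and H3K9me3 are marks of repressed chromatin, and H3K9me1 is the lowest methylation state of the same residue.

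A start site was counted as met when a region reached within 1 kb of any annotated start of the gene. H3K9me1 met 37 of the 58 Cyp genes (63.8%), against 54.4% of all protein-coding genes on the 9 chromosomes. H3K9me2 met 35 (60.3%, against 22.6%) and H3K9me3 met 31 (53.4%, against 20.1%). With each gene weighted by the share on its own chromosome, the same 58 genes would have given 33.6, 13.2 and 11.2 genes. The H3K9me2 and H3K9me3 counts thus stood well over their chromosomes' shares, whereas the H3K9me1 count was close to its own when any start site was counted. At the gene's 5′ end alone, H3K9me1 met 30 Cyp genes (51.7%, against 31.3%), and at start sites of protein-coding transcripts 33 (56.9%, against 42.0%), so that H3K9me1 too then stood above all genes. Shares at these start sites were not weighted by chromosome. These are counts from 1 map per mark, and neighbouring genes of a cluster share regions, so they carry no test.

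At least 1 mark met 48 of the 58 genes (82.8%, against 62.4% of all genes). All 3 marks met 20 genes (34.5%, against 12.1%). The marks could meet different start sites of a gene. At the 5′ end alone Cyp4f18, Cyp19a1, Cyp4f39, Cyp4f37 and Cyp4f40 lacked at least 1 of them. H3K9me1 without the other marks was the commonest marked state of protein-coding genes on these chromosomes, at 35.0%, where 37.6% had no mark, and 9 Cyp genes (15.5%) had it. At the gene's 5′ end alone this gap was smaller, with 8 Cyp genes (13.8%) against 18.5% of all genes. The opposite state, H3K9me2 or H3K9me3 without H3K9me1, held 11 Cyp genes (19%, against 8.05%). Among these, 7 carried H3K9me2 and H3K9me3, 2 carried H3K9me2 alone (Cyp2c37 and Cyp4f15) and 2 carried H3K9me3 alone (Cyp2c67 and Cyp2c69). All 11 lay in tandem clusters. At the gene's 5′ end alone, Cyp4f18 and Cyp19a1, which lie outside the clusters, also had H3K9me2 and H3K9me3 without H3K9me1.

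Coverage of gene bodies also stood above the background for H3K9me2 and H3K9me3, but not for H3K9me1. At least 50% of the body was covered in 25 Cyp genes by H3K9me1 (43.1%, against 44.8% of all genes), in 25 by H3K9me2 (43.1%, against 16.3%) and in 23 by H3K9me3 (39.7%, against 14.3%). The median Cyp body was 33.9% covered by H3K9me1, 44.3% by H3K9me2 and 29.0% by H3K9me3. Over all protein-coding genes these medians were 41.0%, 0% and 0%. The spread among the 58 genes was the whole range, since 13, 10 and 17 bodies were at 0% and 13, 12 and 13 were at 100% for H3K9me1, H3K9me2 and H3K9me3, respectively.

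**Figure D1:**
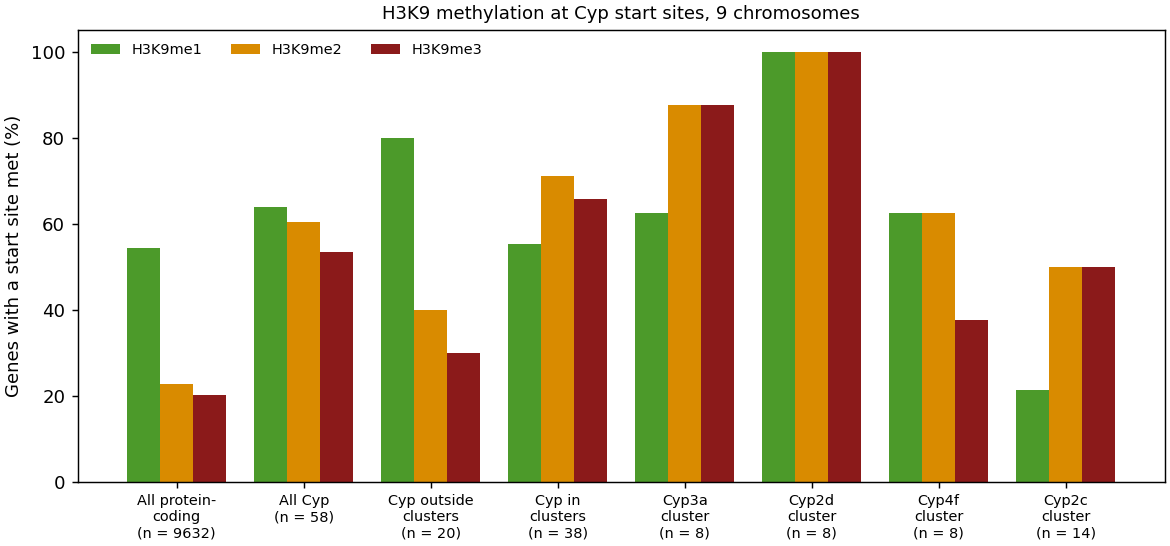
Share of genes (vertical axis, %) with a start site met by H3K9me1 (green), H3K9me2 (orange) or H3K9me3 (red), for all protein-coding genes of the 9 chromosomes, all Cyp genes, Cyp genes outside and inside the 4 clusters, and each cluster, with the number of genes under each group. H3K9me1 leads in all protein-coding genes (54.4%) and in Cyp genes outside the clusters (80.0%), H3K9me2 leads in the clustered genes (71.1%), and the Cyp2d cluster is at 100% for every mark.

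The plot of start site shares separates genes inside tandem clusters from the others. Cyp neighbours at most 500 kb apart were joined, and runs of at least 3 genes gave 4 clusters with 38 genes, named Cyp3a, Cyp2d, Cyp4f and Cyp2c after their subfamilies. Within them H3K9me1 met 21 genes, H3K9me2 27 and H3K9me3 25, where the chromosomes' shares would have given 22.2, 8.68 and 7.38. Among the 20 genes elsewhere, H3K9me1 met 16, H3K9me2 8 and H3K9me3 6, against 11.4, 4.51 and 3.84. H3K9me1 alone held 7 of these 20 genes (35.0%, against 35.0% of all protein-coding genes) and only 2 of the 38 clustered ones (5.26%). The genes outside the clusters were thus at the background for this state.

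Genes of steroid hormone synthesis were all marked by H3K9me1, and most of them by H3K9me2. Of the 6 genes, H3K9me1 met all 6, H3K9me2 met 5 and H3K9me3 met 3, where the shares of their chromosomes would have given 3.58, 1.51 and 1.22. Cyp11b1 (chromosome 15, 74834125 to 74841643), which makes corticosterone, and its neighbour Cyp11b2 (74851010 to 74856318), the aldosterone synthase, lay inside the same regions of all 3 marks. These regions were 44.25 kb wide for H3K9me1, 76.5 kb for H3K9me2 and 81.75 kb for H3K9me3, and both bodies were 100% covered by each. Cyp19a1 (aromatase, chromosome 9, 54165937 to 54268110) also had all 3 marks at its start sites, in regions of 2.25 kb, 6 kb and 4.5 kb, but its long body was only 5.87%, 45.1% and 13.9% covered by H3K9me1, H3K9me2 and H3K9me3.

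The other steroidogenic genes had no H3K9me3 at a start site. Cyp17a1 (chromosome 19), which is needed for sex steroids, was met by a 17.25 kb H3K9me1 region and a 3.75 kb H3K9me2 region 0.829 kb from its 5′ end, and H3K9me1 covered 75% of its body and H3K9me2 0%. Cyp21a1 (chromosome 17), the steroid hydroxylase of the adrenal cortex, was met by regions of 7.5 kb for H3K9me1 and 6.75 kb for H3K9me2, and each mark covered 74.8% of it. Cyp11a1 (chromosome 9), the side-chain cleavage enzyme that starts steroid synthesis, had H3K9me1 alone in an 11.25 kb region, with 69.6% of its body covered, and with H3K9me2 13.6 kb and H3K9me3 20.9 kb from its 5′ end. The 6 genes thus ran from H3K9me1 alone to full coverage by 3 marks.

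Of the 4 genes of sterol, bile acid and vitamin D metabolism, H3K9me1 met 2 and H3K9me2 and H3K9me3 met 0. Their chromosomes' shares would have given 2.31, 1.00 and 0.907, so these counts were near the background. Cyp51 (chromosome 5, 4081145 to 4104746), the lanosterol demethylase of cholesterol synthesis that every cell uses, had no mark and no covered base. Its 5′ end lay 14.3 kb from the nearest H3K9me1 region, 58.5 kb from H3K9me2 and 21 kb from H3K9me3. Cyp8b1 (chromosome 9, 121914356 to 121916305), the sterol hydroxylase that sets the cholic acid content of bile, also had 0% coverage by all marks, although H3K9me1 came within 1.45 kb. Cyp39a1, an oxysterol hydroxylase, had H3K9me1 alone in a 13.5 kb region, with 35.7% of its body covered. Cyp27b1, which makes active vitamin D, had H3K9me1 alone at its start sites, in a 15 kb region, while its body was 100% covered by H3K9me1, with 47.4% under H3K9me2 and 31.7% under H3K9me3.

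Cyp26a1 and Cyp26c1, neighbours on chromosome 19 that degrade retinoic acid, both had H3K9me1 at a start site (1.11 genes at the chromosome's share), in regions of 4.5 kb and 13.5 kb over bodies that were 74.5% and 24.6% covered. Cyp26a1 was also met by a 5.25 kb H3K9me3 region, and H3K9me3 covered 65.6% of its body. H3K9me2 covered 0% of either gene and lay 20.5 kb from the 5′ end of Cyp26a1 and 32.7 kb from that of Cyp26c1. Cyp26a1 was 1 of 2 Cyp genes with H3K9me1 and H3K9me3 but no H3K9me2 at a start site, and Cyp3a11 was the other.

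Family 1 genes are induced by dioxin-like compounds through the aryl hydrocarbon receptor (Ahr). Of the 3 genes H3K9me1 met 2, H3K9me2 2 and H3K9me3 1, where their chromosomes' shares would have given 1.46, 0.467 and 0.346. Cyp1a2 (chromosome 9, 57676937 to 57683703) had all 3 marks, with 100%, 100% and 17.8% of its body covered by H3K9me1, H3K9me2 and H3K9me3, the last in a region of 3 kb. Its divergent neighbour Cyp1a1 (57687928 to 57703824) was met by the same 22.5 kb H3K9me1 region and the same 18.75 kb H3K9me2 region. With other regions further inside the gene, 71.7% of its body was covered by H3K9me1 and 58.7% by H3K9me2, and H3K9me3 covered 0%. The RefSeq start of Cyp1a1 lies 9685 bp downstream of the 5′ end used here and fell between regions, with H3K9me1 at 0.638 kb, H3K9me2 at 1.39 kb and H3K9me3 at 12.1 kb. Cyp1b1 (chromosome 17, 79701537 to 79715061), the family member known from fibroblasts and other mesenchymal cells, had no mark at a start site. H3K9me1 covered 22.2% of its body and lay 1.69 kb from its 5′ end, H3K9me2 was 118 kb away and H3K9me3 584 kb.

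The start regions of Cyp1a1, Cyp1b1 and Cyp51 are shown to set a gene with a marked start site beside 2 without one. No region of any mark overlapped the printed windows themselves. Each is a RefSeq window of the GRCm38.p6 assembly with 250 bases before and 50 bases from the start on, written 5′ to 3′ on the gene's strand. Capitals mark GCGTG, the core of the Ahr response element, on either strand, where the other strand reads CACGC. They also mark TATAAA, the letters of a TATA box, which appears as TTTATA when it lies on the other strand. Matches were marked anywhere in the window, so a marked TATAAA need not be the TATA box of the gene. By their letters GCGTG and TATAAA cannot overlap each other, whereas TATAAA matches on opposite strands can.
Cyp1a1, chr9:57697363-57697662, plus strand: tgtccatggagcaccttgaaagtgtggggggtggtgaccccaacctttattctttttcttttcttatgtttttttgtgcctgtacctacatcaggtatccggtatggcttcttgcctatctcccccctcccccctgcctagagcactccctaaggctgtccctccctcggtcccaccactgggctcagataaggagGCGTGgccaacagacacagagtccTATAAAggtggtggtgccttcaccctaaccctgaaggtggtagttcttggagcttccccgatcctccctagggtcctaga
Cyp1b1, chr17:79715012-79715311, minus strand: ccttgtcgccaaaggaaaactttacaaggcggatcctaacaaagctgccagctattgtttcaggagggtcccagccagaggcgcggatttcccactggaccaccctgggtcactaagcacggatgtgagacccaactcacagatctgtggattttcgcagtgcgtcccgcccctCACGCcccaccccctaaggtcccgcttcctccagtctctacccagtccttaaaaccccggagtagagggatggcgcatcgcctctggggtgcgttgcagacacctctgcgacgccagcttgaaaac
Cyp51, chr5:4104648-4104947, minus strand: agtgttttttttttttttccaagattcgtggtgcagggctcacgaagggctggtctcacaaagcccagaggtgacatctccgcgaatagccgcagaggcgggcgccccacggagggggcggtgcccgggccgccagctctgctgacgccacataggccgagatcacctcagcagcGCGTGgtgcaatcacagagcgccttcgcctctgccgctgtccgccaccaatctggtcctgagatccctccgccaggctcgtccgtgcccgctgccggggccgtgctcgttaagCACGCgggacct
Cyp1a1 holds 1 GCGTG and 1 TATAAA, Cyp1b1 holds 1 GCGTG, and Cyp51 holds 2 GCGTG.

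The remaining genes outside the clusters mostly carried H3K9me1 at a start site. This mark met 50.2%, 67.3% and 55.4% of protein-coding genes on their chromosomes 5, 8 and 19, and so few genes cannot be set apart from these shares. Cyp2c23, an arachidonic acid epoxygenase gene that lies apart from the Cyp2c cluster on the same chromosome, had H3K9me1 alone in a 24.75 kb region over 87.6% of its body. Cyp3a13, which likewise lies apart from the Cyp3a cluster on chromosome 5, had H3K9me1 alone at its start in a 1.5 kb region, with 58.2%, 51.7% and 23.5% of its body covered by H3K9me1, H3K9me2 and H3K9me3. Cyp2w1 had H3K9me1 alone, in a 6.75 kb region, over 32.1% of its body. Cyp4f18, a fatty acid hydroxylase gene on chromosome 8, had all 3 marks in regions of 34.5 kb, 16.5 kb and 9.75 kb, and 65.1%, 92.9% and 64.5% of its body covered. Cyp4v3, another fatty acid hydroxylase gene, had no marked start site, although 47.7% of its body lay under H3K9me1 and 31.8% under H3K9me2, and its nearest H3K9me1 region was 1.72 kb off. The genes outside the clusters with no marked start site were thus Cyp51, Cyp4v3, Cyp8b1 and Cyp1b1, the latter 3 with H3K9me1 within 2 kb.

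**Figure D2:**
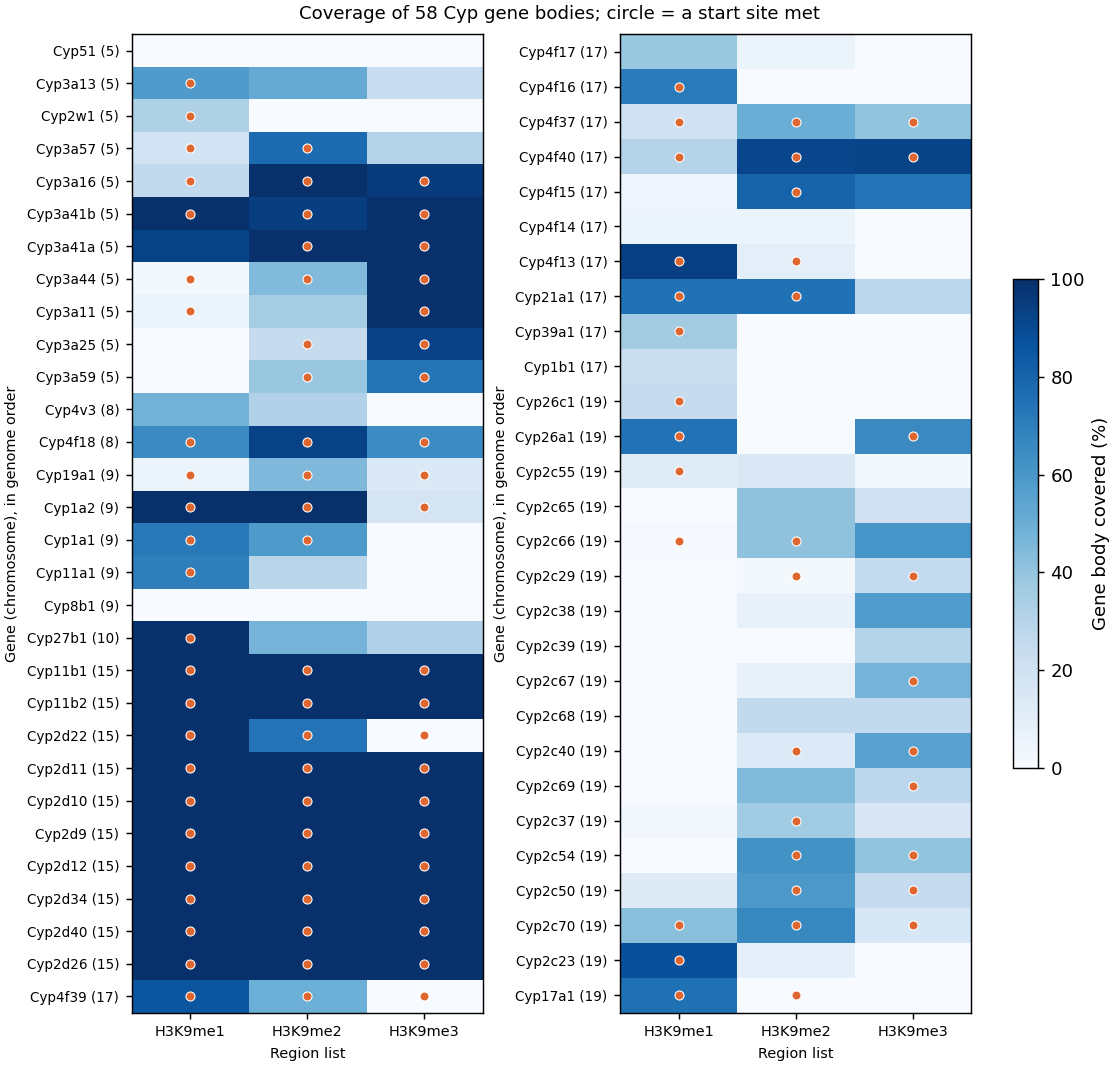
Covered share of each gene body (shade, 0 to 100%) by the 3 region lists (columns) for the 58 Cyp genes (rows, in genome order, chromosome in parentheses), with a circle where a start site was met. The Cyp2d genes and Cyp11b1 and Cyp11b2 form the dark block on chromosome 15, the Cyp3a genes are darkest for H3K9me3, and in the Cyp2c cluster H3K9me1 covers at most 42.2% of a body.

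Cyp2d genes of chromosome 15 encode drug-oxidizing enzymes of the family of human debrisoquine hydroxylase. The cluster spanned 424 kb (82370527 to 82794294), and all 8 genes were met by all 3 marks, on a chromosome where 78.6%, 41.4% and 34.6% of protein-coding genes were met by H3K9me1, H3K9me2 and H3K9me3. H3K9me1 covered 95.8% of the cluster, H3K9me2 97.5% and H3K9me3 96.2%, against 46.8%, 46.1% and 44.1% of the chromosome. Bins of 750 bp, the grid of the lists, carried all 3 marks in 91.9% of the cluster, and 0 of 566 bins were unmarked. The 9 Cyp pseudogenes inside it had all 3 marks as well.

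The sequence next to the Cyp2d cluster was less covered by H3K9me2 and H3K9me3 than the cluster itself. In the 200 kb on the low side of the coordinates H3K9me1 covered 81.2%, H3K9me2 35.8% and H3K9me3 32.2%. On the high side these shares were 72.2%, 14.1% and 7.73%. Of 13 protein-coding genes within 200 kb, H3K9me1 met 12, H3K9me2 4 and H3K9me3 3, and 8 had H3K9me1 alone. The marked sequence did not end with the P450 genes, since 1500009C09Rik, Sept3 and Wbp2nl, on the low side, had all 3 marks, with 98.8%, 100% and 100% of their bodies under H3K9me1, 98.8%, 95.6% and 100% under H3K9me2 and 89.8%, 95.6% and 100% under H3K9me3. Cyp2d22 was the outermost P450 gene on the low side. Its body was 100% covered by H3K9me1, 74.2% by H3K9me2 and 0% by H3K9me3, and its H3K9me3 region ended 0.491 kb from its 5′ end. The other 7 Cyp2d bodies were 100% covered by every mark.

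Few regions served all the Cyp2d genes. A single H3K9me1 region of 194.25 kb met Cyp2d22, Cyp2d11, Cyp2d10, Cyp2d9 and Cyp2d12, and regions of 119.25 kb, 18.75 kb and 31.5 kb met Cyp2d34, Cyp2d40 and Cyp2d26. H3K9me2 met the first 3 of these genes with a 35.25 kb region, Cyp2d9 and Cyp2d12 with one of 174.75 kb, Cyp2d34 with one of 130.5 kb, and Cyp2d40 and Cyp2d26 with one of 72.75 kb. H3K9me3 met the first 3 genes with a 33.75 kb region, the next 3 with one of 243 kb and the last pair with one of 140.25 kb. The 8 genes are thus far from 8 separate observations. Windows of 5 Cyp2d genes could be aligned and were 46.5% to 84.5% identical, the highest pair being Cyp2d11 and Cyp2d9.

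Cyp3a genes of chromosome 5 encode oxidases of drugs and steroids in liver and intestine. Their 8 genes spanned 768 kb (145345279 to 146113287) without another protein-coding gene, and H3K9me2 and H3K9me3 each met 7 of them, and H3K9me1 5. On the chromosome 50.2% of protein-coding genes were met by H3K9me1, 13.8% by H3K9me2 and 11.9% by H3K9me3. H3K9me3 covered 86.1% of the cluster, against 16.5% of the chromosome and 19.9% and 32.0% of its 200 kb flanks. H3K9me2 covered 55.0%, against 10.4% of the chromosome. H3K9me1 covered 29.2%, which lay between its flanks (43.8% and 20.6%).

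The widest region of the Cyp3a cluster was a 237.75 kb H3K9me3 region that met the start sites of Cyp3a41a, Cyp3a44 and Cyp3a11, and all 3 bodies were 100% covered by H3K9me3. The other marks differed along it. H3K9me2 covered 100% of Cyp3a41a, 44.3% of Cyp3a44 and 35.2% of Cyp3a11, and H3K9me1 covered 92.8%, 1.96% and 5.87% of them. Cyp3a25 and Cyp3a59, at the high end, had 0% of their bodies under H3K9me1, with 93.1% and 73.6% under H3K9me3 and 24.3% and 38.3% under H3K9me2. Their start sites were met by H3K9me3 regions of 56.25 kb and 49.5 kb and H3K9me2 regions of 16.5 kb and 40.5 kb. The H3K9me1 region nearest to Cyp3a59 lay 1.01 kb away, just outside the window.

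At the low end of the cluster, Cyp3a57 was the one gene with H3K9me1 and H3K9me2 but not H3K9me3 at a start site. Its body was 18.6%, 77.0% and 30.5% covered by H3K9me1, H3K9me2 and H3K9me3. Cyp3a16 had all 3 marks in regions of 15 kb, 61.5 kb and 44.25 kb, and 26.1%, 100% and 95.5% of its body was covered. Cyp3a41b also had all 3, in regions of 60 kb, 21.75 kb and 95.25 kb, with 100%, 94.2% and 100% covered. H3K9me3 thus covered at least 73.6% of every body in the cluster except that of Cyp3a57.

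Near-identical copies limit what can be read from single Cyp3a genes. The windows of Cyp3a41b and Cyp3a41a were 97.0% identical, those of Cyp3a25 and Cyp3a59 95.7% and those of Cyp3a16 and Cyp3a44 93.4%, whereas the median pair of the cluster was at 58%. How reads that fit several places were treated is not given in the sources used here, so calls on these copies are uncertain. Cyp3a41b had H3K9me1 at its start and Cyp3a41a did not, although the latter's body was 92.8% covered and the nearest H3K9me1 region lay 1.11 kb off. The pair of windows is shown because nearly the same letters carry different H3K9me1 calls, and TATAAA is in capitals as above.
Cyp3a41b, chr5:145584681-145584980, minus strand: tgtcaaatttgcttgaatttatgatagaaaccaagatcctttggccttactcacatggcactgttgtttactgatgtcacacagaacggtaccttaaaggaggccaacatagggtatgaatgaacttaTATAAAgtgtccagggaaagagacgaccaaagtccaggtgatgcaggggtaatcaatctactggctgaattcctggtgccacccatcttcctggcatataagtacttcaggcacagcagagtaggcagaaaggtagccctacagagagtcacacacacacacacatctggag
Cyp3a41a, chr5:145720087-145720386, minus strand: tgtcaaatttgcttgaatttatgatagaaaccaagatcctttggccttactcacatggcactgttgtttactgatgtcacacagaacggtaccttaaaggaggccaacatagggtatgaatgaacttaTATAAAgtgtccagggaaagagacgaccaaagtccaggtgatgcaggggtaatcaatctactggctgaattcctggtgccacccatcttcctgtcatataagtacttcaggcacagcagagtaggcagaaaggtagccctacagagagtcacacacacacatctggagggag
Each window holds 1 TATAAA and 0 GCGTG.

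**Figure D3:**
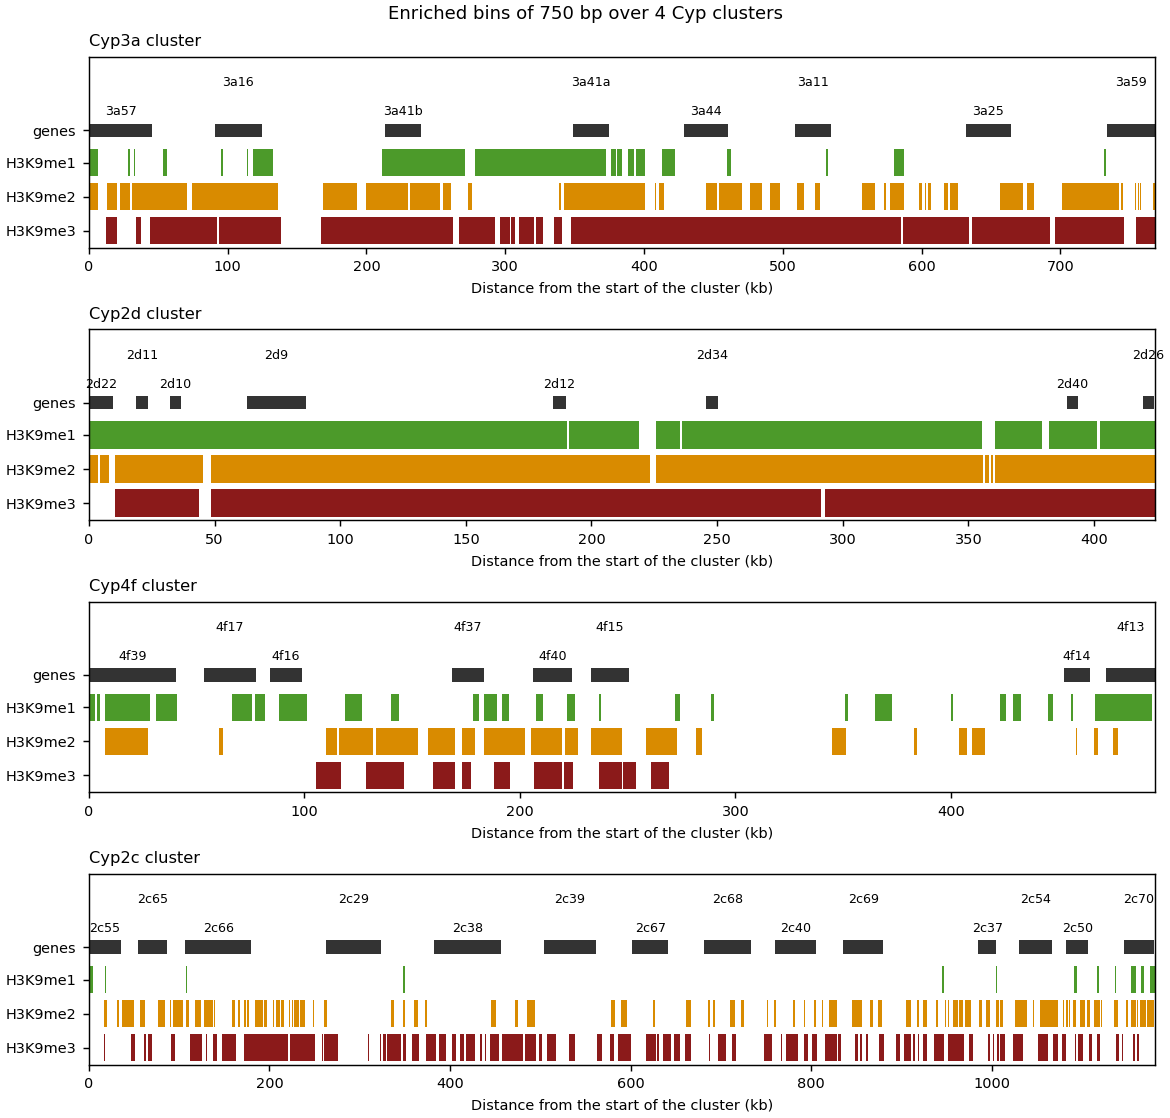
Bins of 750 bp in the H3K9me1 (green), H3K9me2 (orange) and H3K9me3 (red) lists over the 4 clusters, plotted by distance from the start of the cluster (horizontal axis, kb), with gene bodies in black and symbols without their Cyp prefix. The 3 tracks fill the Cyp2d cluster nearly without a break, H3K9me3 is the fullest track over Cyp3a, H3K9me1 and H3K9me3 occupy mostly different stretches of Cyp4f, and H3K9me1 is nearly missing over Cyp2c.

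Cyp4f genes of chromosome 17 encode hydroxylases of fatty acids and leukotrienes. Their cluster spanned 495 kb (32452723 to 32947402) and was marked in parts, with H3K9me1 and H3K9me2 each meeting 5 of the 8 genes and H3K9me3 3. On this chromosome 52.4%, 15.8% and 14.1% of protein-coding genes were met by H3K9me1, H3K9me2 and H3K9me3. H3K9me1 covered 28.6% of the cluster, H3K9me2 35.3% and H3K9me3 18.8%, against 26.5%, 16.9% and 22.4% of the chromosome. H3K9me3 was thus no more frequent here than over the chromosome as a whole, and 44.2% of bins had no mark.

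The map of the clusters shows where in Cyp4f the marks lay. Cyp4f37, Cyp4f40 and Cyp4f15, in the middle, had 50%, 91.7% and 80.4% of their bodies under H3K9me2 and 39.9%, 92.5% and 73.9% under H3K9me3. H3K9me1 covered 20.2%, 30.1% and 4.23% of these 3 bodies. At the low end Cyp4f39 and Cyp4f16 were 85.2% and 70.8% covered by H3K9me1 and at the high end Cyp4f13 was 93.8% covered, all 3 with 0% under H3K9me3. Cyp4f17 and Cyp4f14 had no marked start site, and H3K9me1 covered 39% and 6.11% of them.

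Regions at the Cyp4f start sites were short. They measured 21 kb, 20.25 kb and 9.75 kb at Cyp4f39 for H3K9me1, H3K9me2 and H3K9me3, 3 kb, 12.75 kb and 10.5 kb at Cyp4f37, and 3 kb, 14.25 kb and 12.75 kb at Cyp4f40. Cyp4f15 was met by H3K9me2 alone in a region of 14.25 kb, with H3K9me3 at 3.87 kb from its 5′ end. Cyp4f16 was met by H3K9me1 alone in a region of 12.75 kb, and Cyp4f13 by H3K9me1 and H3K9me2 in regions of 26.25 kb and 2.25 kb. Cyp4f16 and Cyp4f13, which have 10 and 13 annotated start sites, were met only at start sites other than the 5′ end. At the 5′ end alone, H3K9me1 met only Cyp4f39 in this cluster. It lay 9.69 kb from the 5′ end of Cyp4f37 and 1.35 kb from that of Cyp4f40. The H3K9me2 call of Cyp4f39 was also at an inner start site, 3.97 kb being the distance from its 5′ end. H3K9me1 and H3K9me3 were found together without H3K9me2 in 0 of 660 bins of the cluster, and with it in 3.03%.

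Cyp2c genes of chromosome 19 encode oxidases of drugs and arachidonic acid. They formed the largest cluster, with 14 genes over 1180 kb (39007019 to 40187333), and it was nearly without H3K9me1. H3K9me1 covered 2.59% of it, against 31.0% of the chromosome and 24.5% and 45.6% of the 200 kb on either side. One stretch of 596 kb inside the cluster held no H3K9me1 region. H3K9me3 covered 46.3% and H3K9me2 29.4% of the cluster, against 23.3% and 22.3% of the chromosome. The H3K9me2 share rested on short regions, since it was 17.6% with regions of at least 5 kb and 19.3% with regions shortened by 1 bin at both ends, both below the chromosome's share with all regions. The flanks were at 0% for both marks on the low side, and at 6.75% for H3K9me3 and 8.62% for H3K9me2 on the high side.

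At the start sites, H3K9me1 met 3 of the 14 Cyp2c genes, and H3K9me2 and H3K9me3 each met 7, where 55.4%, 21.4% and 18.1% of protein-coding genes on the chromosome were met. The 3 genes with H3K9me1 were Cyp2c55 and Cyp2c66 near the low end and Cyp2c70, the outermost gene on the high side, which makes muricholic acids in mouse bile. At Cyp2c66 the H3K9me1 region was only 0.75 kb wide and lay 0.853 kb from the 5′ end, as did H3K9me2. H3K9me1 covered 1.02% of its body. Cyp2c29, Cyp2c40, Cyp2c54 and Cyp2c50 carried H3K9me2 and H3K9me3, and Cyp2c65, Cyp2c38, Cyp2c39 and Cyp2c68 had no marked start site. At its RefSeq start, 17680 bp from the 5′ end used here, Cyp2c29 had no mark (H3K9me2 at 16.3 kb and H3K9me3 at 4.33 kb). Cyp2c39 has 2 RefSeq starts. The one 40 bp from the 5′ end was unmarked too, and only the one 163516 bp upstream was met by H3K9me3. The 4 genes without a marked start site were not free of the marks, since H3K9me3 covered 20.5%, 57.7%, 29.9% and 25.9% of their bodies and H3K9me2 41%, 7.14%, 0% and 25.9%. Cyp2c38 and Cyp2c39 lay 1.82 kb and 1.61 kb from an H3K9me3 region. H3K9me1 covered 0% of 9 of the 14 bodies and at most 42.2% (Cyp2c70).

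Body coverage in the Cyp2c cluster did not follow the start site calls closely. Cyp2c54 and Cyp2c50 had 62.4% and 59.6% of their bodies under H3K9me2 and 39.9% and 24.7% under H3K9me3. Cyp2c40 had 13.5% and 55.3%, and Cyp2c29, with both marks at a start site, only 2.20% and 25.4%. Cyp2c66, whose start site H3K9me3 did not meet, had the highest H3K9me3 share of the cluster at 60.9%. Cyp2c70, met by all 3 marks in regions of 5.25 kb, 6.75 kb and 3.75 kb, had 66.2% under H3K9me2 and 15.4% under H3K9me3. Cyp2c37 was met by H3K9me2 alone (36.5% of its body) and Cyp2c67 and Cyp2c69 by H3K9me3 alone (47.4% and 28%). Cyp2c55, with H3K9me1 alone, had 11.9%, 14.7% and 2.10% of its body covered by H3K9me1, H3K9me2 and H3K9me3.

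The H3K9me2 and H3K9me3 regions of the Cyp2c cluster were many and short. The cluster held 83 H3K9me2 and 82 H3K9me3 regions, the widest of 20.25 kb and 49.5 kb, where the Cyp2d cluster held 8 and 3, the widest of 174.75 kb and 243 kb. With such short regions the start site counts depend on where a region ends, and 41.9% of bins had no mark. H3K9me3 was found without another mark in 27.9% of bins and with H3K9me2 in 17.5%, and all 3 marks together in 0.508%.

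**Figure D4:**
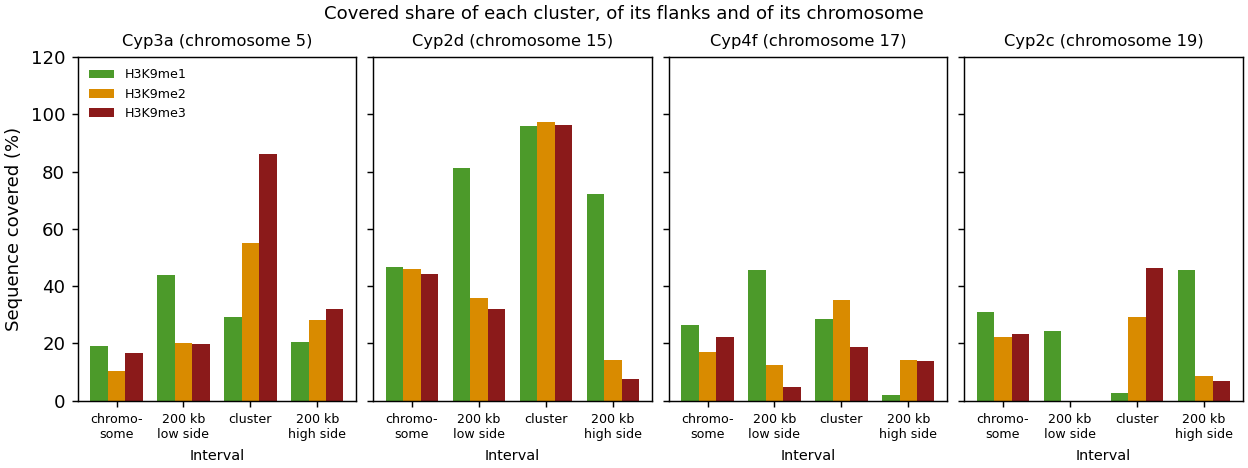
Covered share of sequence (vertical axis, %) for each mark over the chromosome, the 200 kb on the low side, the cluster and the 200 kb on the high side, 1 panel per cluster. H3K9me2 and H3K9me3 are higher in every cluster than in both flanks, while H3K9me1 exceeds both flanks only in the Cyp2d cluster (95.8%, against 81.2% and 72.2%).

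Start windows from the ends of this range are shown, Cyp2d11 (all 3 marks, 100% of its body under each) and Cyp2c67 (H3K9me3 alone, 47.4% of its body, with H3K9me1 292 kb from its 5′ end), with TATAAA on either strand in capitals.
Cyp2d11, chr15:82393973-82394272, minus strand: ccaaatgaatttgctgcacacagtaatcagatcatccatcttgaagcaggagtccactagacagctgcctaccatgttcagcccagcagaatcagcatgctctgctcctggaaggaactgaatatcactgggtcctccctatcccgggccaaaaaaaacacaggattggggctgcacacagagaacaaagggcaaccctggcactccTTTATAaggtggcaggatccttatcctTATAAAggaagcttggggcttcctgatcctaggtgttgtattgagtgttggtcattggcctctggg
Cyp2c67, chr19:39648993-39649292, minus strand: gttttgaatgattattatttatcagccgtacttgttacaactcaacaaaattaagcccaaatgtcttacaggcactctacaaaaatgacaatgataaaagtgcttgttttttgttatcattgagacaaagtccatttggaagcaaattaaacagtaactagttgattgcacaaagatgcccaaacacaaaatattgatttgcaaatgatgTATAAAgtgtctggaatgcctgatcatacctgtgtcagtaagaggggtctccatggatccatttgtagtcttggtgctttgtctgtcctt
Cyp2d11 holds 2 such matches and Cyp2c67 holds 1.

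The rule did not use base composition, and the start regions of the Cyp genes were poor in CpG. Over 1 kb either side of the 5′ end, the ratio of observed to expected CpG had a median of 0.138 in the 58 genes and 0.499 in all protein-coding genes of the 9 chromosomes. The median was 0.0550 in the Cyp3a cluster, 0.138 in Cyp2d, 0.124 in Cyp4f and 0.120 in Cyp2c. Genes with H3K9me2 or H3K9me3 and no H3K9me1 had a median of 0.0723, and genes with H3K9me1 alone 0.274. The ranges overlapped, from 0.0229 to 0.214 in the former and from 0.0735 to 0.569 in the latter.

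A ratio of at least 0.4 was reached by 6 Cyp genes, all outside the clusters, and none of them carried H3K9me2. With 6 genes this count is too small to be set apart from the 22.6% of all protein-coding genes, of any CpG ratio, that H3K9me2 met. A share for only the genes with a ratio of at least 0.4 was not computed. Cyp51 (0.659), Cyp1b1 (0.603) and Cyp4v3 (0.456) had no mark, Cyp39a1 (0.569) and Cyp26c1 (0.401) had H3K9me1 alone, and Cyp26a1 (0.628) had H3K9me1 and H3K9me3. Since CpG-poor starts carried H3K9me2 and H3K9me3 more often among all genes too, the other 52 genes were also set beside the 3885 protein-coding genes under 0.4, a limit chosen after the values were seen. H3K9me1 met 65.4% of the 52 genes (55.6% of the 3885), H3K9me2 met 67.3% (37.7%) and H3K9me3 met 57.7% (30.4%). The part of base composition in the counts was not tested beyond this.

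GC content and repeats differed widely between the clusters. Start regions of the Cyp2c cluster had a median GC content of 37.8%, those of Cyp2d 49.2%, and all protein-coding genes 52.2%. Repeats made up a median of 48.9% of Cyp2c bodies and 14.4% of Cyp2d bodies, against 22.3% over all genes. Cyp2d and Cyp3a, the 2 clusters with the highest H3K9me3 shares over the whole cluster, had median repeat shares of 14.4% and 30.1% in their gene bodies. Repeats between the genes were not counted, and a link between repeats and H3K9me3 was not tested.

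RefSeq start windows were found for 47 of the 58 genes, 56 windows in all. TATAAA on either strand was in 26 of them (46.4%), against 13.6% of the 32851 windows of all genes. GCGTG on either strand was in 9 (16.1%), against 32.4%. Some windows come from the same gene or from near-identical copies, so the 56 windows are not separate observations. A match describes the letters of a window and not the binding of a factor.

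Among the electron donors of the P450 enzymes, 7 genes lay on the 9 chromosomes. Their chromosomes' shares would have given 3.74, 1.40 and 1.13 genes met by H3K9me1, H3K9me2 and H3K9me3. H3K9me1 met 5, namely Por (P450 reductase), Fdxr (ferredoxin reductase), Fdx1l, Cyb5b and Cyb5r3. H3K9me2 and H3K9me3 met 0 of the 7 and covered 0% of their bodies, counts too small to be set apart from those shares, while H3K9me1 covered 41.9% of Por, 58.2% of Fdxr, 73.5% of Fdx1l, 66.4% of Cyb5b and 45.9% of Cyb5r3. Fdx1, the mitochondrial ferredoxin of steroid synthesis, and Cyb5r4 had no marked start site. Of the transcription factors that control P450 genes, 6 lay on these chromosomes, and H3K9me1 met all 6, where 4.07, 2.03 and 1.79 genes would be met by the 3 marks at the chromosomes' shares. H3K9me2 met 3 of them, Ppara, Nr1h4 (the bile acid receptor) and Vdr (the vitamin D receptor), and H3K9me3 met Ppara and Nr1h4. H3K9me2 covered 93.7% of Ppara, 70.6% of Nr1h4 and 54.1% of Vdr. Rxrb, Srebf1 and Srebf2, the latter a regulator of cholesterol synthesis, had H3K9me1 alone.

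Families of other drug-metabolizing enzymes on the 9 chromosomes differed in their marks. All 19 carboxylesterase genes, which lie on chromosome 8, were met by H3K9me2 and H3K9me3, where that chromosome's shares would have given 5.81 and 5.57, and H3K9me1 met 12 of them, near its share of 12.8. The 12 UDP glucuronosyltransferase genes were met by H3K9me1 in 0 cases, where 6.60 would be met at their chromosomes' shares, and by H3K9me2 and H3K9me3 in 2 each, close to 2.21 and 1.88. Of 10 sulfotransferase genes, H3K9me1 and H3K9me2 met 5 each and H3K9me3 met 4, against 6.17, 2.71 and 2.51. Of 12 glutathione S-transferase genes, 11 were met by H3K9me1, 3 by H3K9me2 and 5 by H3K9me3, against 7.44, 3.74 and 3.39. These families also hold neighbouring genes that share regions, so their counts are descriptions as well.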

How the data were processed

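Wild-type MEFs were profiled by ChIP-seq for H3K9me1, H3K9me2 and H3K9me3, with input, in 2 replicates each. The authors aligned reads to mm10 (GRCm38) with bwa 0.7.1 and called enriched regions with histoneHMM. The deposited lists hold positions only (chromosome, start, end), on a grid of 750 bp with 0 positions off it, without counts, scores or p-values. How replicates, input and multiply mapping reads entered the call is not given in the sources used here. Groups came from the labels.

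Start sites and bodies came from GENCODE M21 and base composition from the GRCm38 sequence. A start was met by a region within 1 kb. Counts have no test: each stands beside all protein-coding genes of the same chromosomes. Interval counting was checked on simulated lists, with 0 mismatches in 1000 intervals. The genes, lists and limits were chosen with earlier results of these data known. Genes with a marked start site and single-copy genes are given with values and the rest by number and range. Printed windows are from RefSeq. Alternatives covered window, region width, joining, coverage limit and chromosome 15. Python 3.11.15, NumPy 2.4.6, Biopython 1.88 and Matplotlib 3.10.9 were used.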

Additional observations from a re-analysis of the deposited data

How the results depend on the processing

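No paired analysis was possible because the region lists hold no value per replicate, and no replicate could be left out for the same reason. Depth limits every call to an unknown degree, since it cannot be read from the lists. Leaving out chromosome 15 lowered the bodies covered to at least 50% to 15 of 48 for H3K9me1, 15 for H3K9me2 and 14 for H3K9me3, since 10, 10 and 9 of the 10 genes there passed that limit. A limit of 25% raised the H3K9me2 bodies from 25 to 38. Over 10 alternatives the start site counts ran from 27 to 45 for H3K9me1, from 25 to 42 for H3K9me2 and from 21 to 43 for H3K9me3, all within 1.5 times the reported count. In each of these the share of Cyp genes was above that of all protein-coding genes. H3K9me1 alone ran from 8 to 13 genes and stayed below that of all genes. The share of bodies at least 50% covered by H3K9me1 was above the background in 2 of 7 alternatives. At the RefSeq starts of 47 genes, an alternative chosen after seeing the data, H3K9me1 met 22 (28 at the starts used), H3K9me2 23 (27) and H3K9me3 25 (25), and the marks of 10 genes differed, namely Cyp1a1, Cyp2c29, Cyp2c39, Cyp3a11, Cyp4f13, Cyp4f16, Cyp4f18, Cyp4f37, Cyp4f39 and Cyp4f40. Of the cluster coverage values, 25 stayed within the 95% Wilson interval of the reported share over bins and 35 left it. Neighbouring bins are not independent, so this interval served only as a yardstick and measures no spread between samples. Coverage of the Cyp2c cluster stayed between 0.897% and 4.31% for H3K9me1, between 17.6% and 39.4% for H3K9me2 and between 36.5% and 56.3% for H3K9me3.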
